A study of Mus musculus with 6 samples.

Results

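The unfolded protein response genes of mouse oocytes were followed here through 10 genes taken by their symbols from the 55291 rows of the count table. They are the stress sensors Ern1, Eif2ak3, Atf6 and Atf6b, the transcription factors Xbp1, Atf4 and Ddit3, and the chaperone genes Hspa5, Hsp90b1 and Calr. All 10 were found and all 10 passed the filter on low counts. The samples were pools of 10 fully grown oocytes, 3 from mature Nat10 conditional knockout females (Nat10 cKO) and 3 from mature wild-type females (WT). In the Nat10 cKO females a Cre recombinase under Gdf9, a gene that oocytes express, deletes the gene of the RNA cytidine acetyltransferase NAT10. All females had received PMSG, a gonadotropin that stimulates follicle growth, and oocytes were collected in a window given as 36 to 48 h after it in one label and as 32 to 48 h in another. Every pool was lysed directly, given 0.2 µl of a 1000-fold dilution of ERCC spike-in RNA, and made into a Smart-seq2 library, a method that primes polyadenylated RNA with oligo-dT and amplifies the whole cDNA. The sources used here do not give the strain, the exact age, the deleted exons or whether WT females carried Cre or floxed alleles. The labels do not say that pools came from separate animals, so p-values measure the spread between these pools.

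The unfolded protein response is the set of signals by which a cell answers unfolded proteins in the endoplasmic reticulum (ER). IRE1α, encoded by Ern1, is an RNase and kinase that splices Xbp1 mRNA so that it encodes an active transcription factor. PERK, encoded by Eif2ak3, phosphorylates eIF2α, which lowers general translation while Atf4 mRNA is translated more, and ATF4 in turn activates Ddit3, the gene of CHOP. ATF6 and ATF6B are membrane-bound factors that are cut in the Golgi, and with NF-Y they act at the ER stress response element of chaperone promoters. A growing oocyte makes and secretes the proteins of the zona pellucida and growth factors such as GDF9 through the ER.

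The promoters of the 3 chaperone genes are shown because Hspa5, Hsp90b1 and Calr moved together and because they hold the element through which ATF6 and NF-Y are known to act. The stretches are the 250 bases before the RefSeq start of each gene on GRCm38.p6, 5′ to 3′ on the gene's strand. Capitals mark each ER stress response element (ERSE), searched on both strands as CCAAT, any 9 bases and then CCACG. An element on the reverse strand therefore reads from CGTGG to ATTGG.
Hspa5, chr2:34771840-34772089, forward strand: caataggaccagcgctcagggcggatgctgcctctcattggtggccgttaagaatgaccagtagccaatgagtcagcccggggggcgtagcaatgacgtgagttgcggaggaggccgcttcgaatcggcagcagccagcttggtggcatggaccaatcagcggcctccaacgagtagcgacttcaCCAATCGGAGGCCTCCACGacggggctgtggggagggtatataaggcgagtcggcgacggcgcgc
Hsp90b1, chr10:86705445-86705694, reverse strand: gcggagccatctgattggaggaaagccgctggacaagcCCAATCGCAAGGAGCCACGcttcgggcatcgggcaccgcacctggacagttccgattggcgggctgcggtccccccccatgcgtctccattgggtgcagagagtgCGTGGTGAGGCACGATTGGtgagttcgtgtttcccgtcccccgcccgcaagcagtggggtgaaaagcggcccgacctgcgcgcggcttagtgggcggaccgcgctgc
Calr, chr8:84846932-84847181, reverse strand: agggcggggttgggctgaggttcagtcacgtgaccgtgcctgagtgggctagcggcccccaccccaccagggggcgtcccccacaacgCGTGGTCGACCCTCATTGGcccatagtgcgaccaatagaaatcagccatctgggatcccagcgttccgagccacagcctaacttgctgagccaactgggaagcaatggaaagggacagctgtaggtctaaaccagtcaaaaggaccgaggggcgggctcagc

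The Hspa5 element lay 65 to 47 bases before the start. Hsp90b1 held 2 elements, 212 to 194 bases before the start on the gene's strand and 107 to 89 bases before it on the other strand, and the Calr element lay 162 to 144 bases before the start on the other strand. The window searched ran from 250 bases before to 50 after the start and was available in RefSeq for 9 of the 10 genes, all but Atf6. An ERSE was found in 3 of these 9 and in 37 of the 27025 mouse genes with a window, 0.137%. The element is known from the promoters of ER chaperone genes, so its presence in the 3 chaperone genes could be foreseen. These shares are therefore a description and no test. The promoters of Xbp1, Ern1, Eif2ak3, Atf4, Atf6b and Ddit3 held no exact ERSE. The core of the unfolded protein response element, TGACGTGG, whose reverse strand contains CCACG, and the core of the ATF4 composite element, TTGCATCA, were in none of the 9 windows, against 0.714% and 1.03% of all genes. CCAAT alone was in 41.1% of all genes' windows and CCACG alone in 35.5%. A match describes the letters of the window and does not show that a factor binds there.

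**Figure D1:**
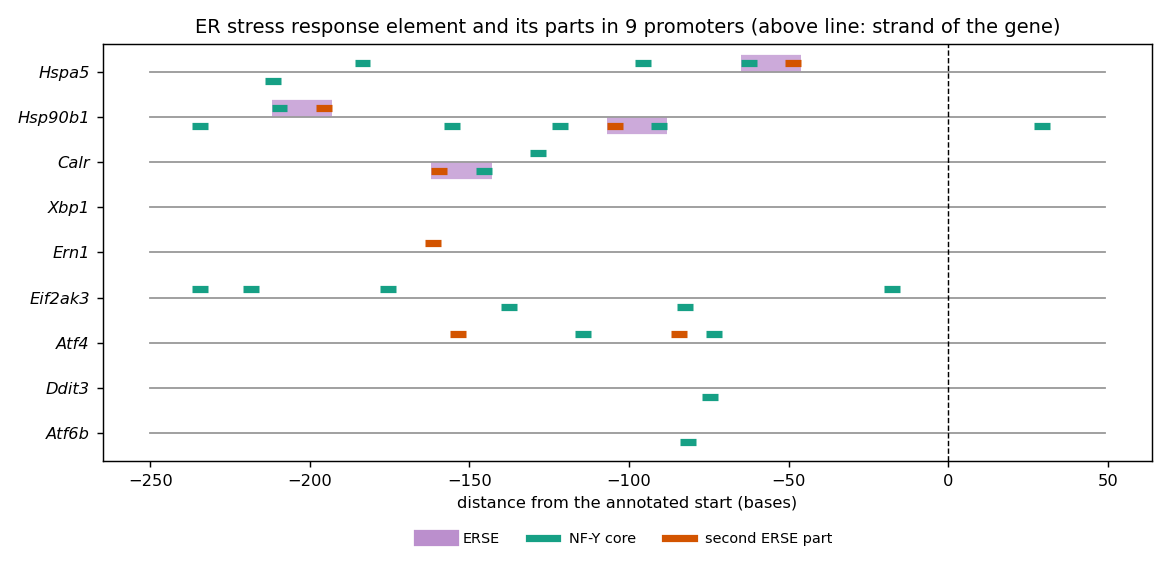
Positions of the ERSE (purple) and of its parts, the NF-Y core (green) and the second part (orange), along the windows of 9 genes, in bases from the annotated start; marks above a line are on the gene's strand and marks below it on the other. Hspa5 and Calr each carry 1 full ERSE and Hsp90b1 carries 2; the other 6 carry parts or none.

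Between 33.5 and 74.1 M reads were counted per library (74.1, 47.4 and 71.0 M in Nat10 cKO replicates 1, 2 and 3, and 33.5, 34.1 and 65.5 M in WT replicates 1, 2 and 3), with 23044 to 26440 genes detected. Nat10, the targeted gene, was at 5.72, 5.97 and 6.32 CPM in Nat10 cKO libraries and at 42.1, 50.1 and 39.4 CPM in WT libraries, a log2 fold change of -2.67 (SE 0.129, limma adjusted p = 4.28e-08). Levels are CPM (read counts scaled by library size) after TMM scaling, which sets the bulk of genes equal between libraries, and fold changes are Nat10 cKO over WT on the log2(CPM + 1) scale, unless another scale is named. A gene is said to have risen or fallen where the limma p-value, adjusted over 18353 tested genes, was under 0.05. The oocyte markers gave the libraries their identity. These 10 genes summed to 24500 to 29600 CPM in Nat10 cKO libraries and 19500 to 20100 CPM in WT libraries. The exact two-sided permutation p was 0.1, the smallest that 3 against 3 allows. Of the 10 oocyte markers 8 rose, against 17.4% of all tested genes, and 1, Oosp1, fell, against 17.6%. Granulosa markers summed to 393 to 435 CPM in Nat10 cKO libraries and 416 to 467 CPM in WT libraries, mostly from Serpine2, with Amh, Foxl2 and Hsd17b1 below 1 CPM. The exact permutation p of this sum was 0.4, and of 10 tested granulosa markers 1 rose, Inha, and 2 fell, Inhba and Cyp19a1. Markers of theca, stroma and endothelium summed to 94.6 to 109 CPM in Nat10 cKO libraries and 95.6 to 101 CPM in WT libraries. Their exact permutation p was 0.7, and of 6 tested genes 1 rose and 2 fell. Those of blood and immune cells summed to 34.9 to 35.5 CPM in Nat10 cKO libraries and 44.2 to 50.3 CPM in WT libraries, mostly from C1qb, with 8 of 10 genes below 1 CPM, Ptprc among them. Here too the exact permutation p was 0.1, and of 3 tested genes 0 rose and 1, C1qb, fell. The part of these marker levels in the results was not tested. If total RNA differed between pools, fewer oocytes in a pool and less RNA per oocyte could not be told apart.

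In Nat10 cKO oocytes Xbp1 and the chaperone genes Hspa5, Calr and Hsp90b1 were higher, Ddit3 was slightly higher, and Ern1 was lower. Eif2ak3, Atf4, Atf6 and Atf6b did not pass the test. On the log2(CPM + 1) scale the change of Xbp1 was 5.29-fold, whereas the other called genes changed by less than 1.5-fold. In mean CPM Xbp1 changed about 10.0-fold. Of the 10 genes, 5 rose, against 17.4% of all tested genes, and 1 fell, against 17.6%. The libraries of the 2 genotypes did not overlap for 6 genes that were higher in Nat10 cKO and 1 that was lower, against 48.3% of all tested genes in either direction. The median log2 fold change was 0.27 over the 10 genes and 0.00 over all tested genes.

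**Figure D2:**
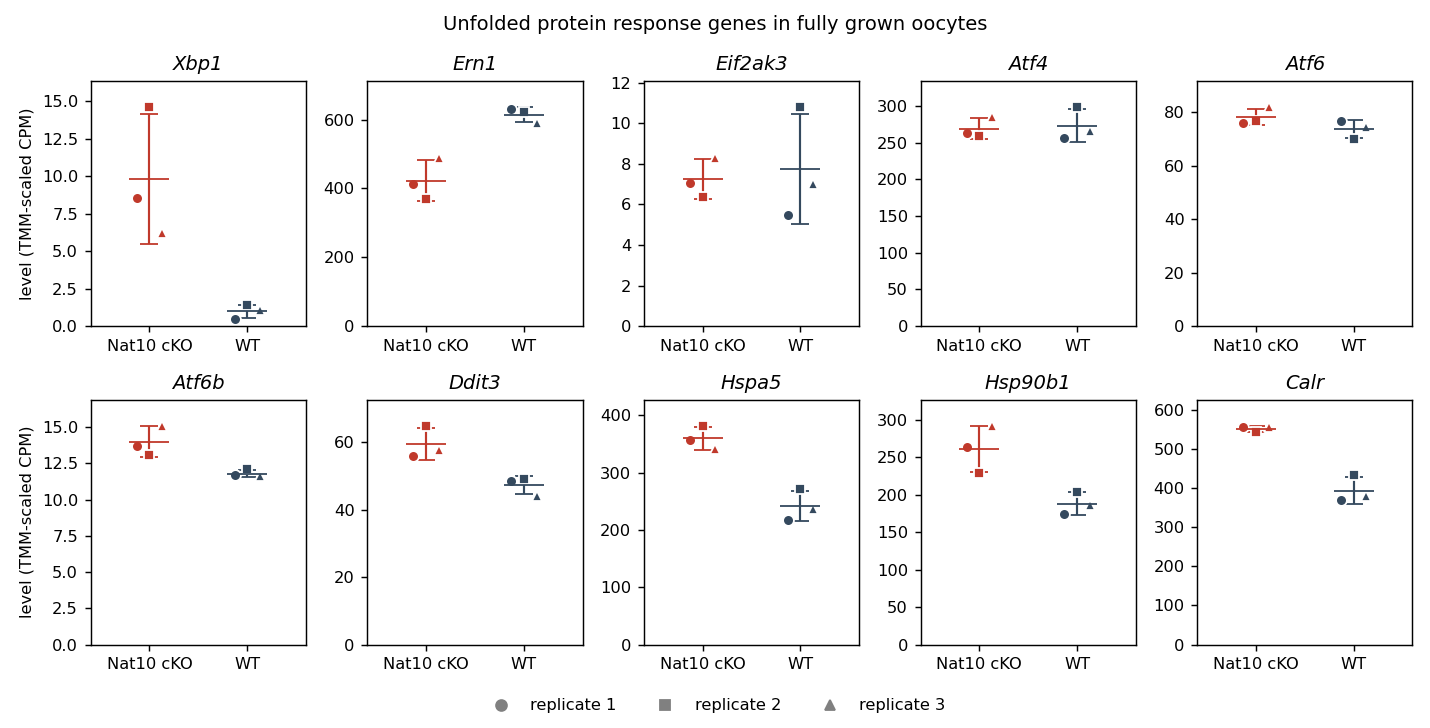
Level of each gene (TMM-scaled CPM) in the 3 Nat10 cKO libraries (red, left) and the 3 WT libraries (blue, right); symbols are replicates, the long line is the mean and the bars are the SD, and each axis starts at 0. Xbp1 is at 6.24 to 14.6 CPM in Nat10 cKO and at most 1.38 CPM in WT, Ern1 is lower in every Nat10 cKO library, and the 3 chaperone genes are higher in every Nat10 cKO library.

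In the IRE1 arm, the mRNA of the sensor and that of its substrate moved in opposite directions. Ern1 (chromosome 11, 106394650 to 106487852, GRCm38), the gene of IRE1α, had 413, 368 and 487 CPM in Nat10 cKO libraries and 632, 621 and 590 CPM in WT libraries. Even the highest Nat10 cKO library was below the lowest WT library, and Nat10 cKO replicate 2 was the lowest of all. Ern1 averaged 422 ± 59.8 CPM in Nat10 cKO and 614 ± 21.8 CPM in WT (SD, n = 3 each) and fell by 0.55 on the log2 scale (SE 0.0998, 95% interval -0.76 to -0.33, limma adjusted p = 0.00119). Xbp1 (chromosome 11, 5520659 to 5525893) had 8.55, 14.6 and 6.24 CPM in Nat10 cKO libraries and 0.495, 1.38 and 1.06 CPM in WT libraries. The genotypes did not overlap: the lowest Nat10 cKO library, replicate 3, was well above the highest WT library, replicate 2. The reads behind these levels were 639, 696 and 451 in Nat10 cKO libraries and only 16, 48 and 68 in WT libraries. Xbp1 averaged 9.81 ± 4.34 CPM in Nat10 cKO and 0.977 ± 0.448 CPM in WT and rose by a log2 fold change of 2.40 (SE 0.253, 95% interval 1.86 to 2.95, limma adjusted p = 4.15e-05), the 6th highest of 18353 genes. Because the WT level is near the pseudocount, the size depends on it: the log2 fold change was 3.02 with a pseudocount of 0.25, 1.27 with a pseudocount of 5, 3.30 in edgeR and 3.32 in DESeq2. Reads were counted per gene, so spliced and unspliced Xbp1 mRNA were not separated and IRE1 activity was not measured.

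The ERAD and IRE1 arm list holds 23 genes for ER-associated degradation, which retrieves misfolded proteins for the proteasome, and for the IRE1 arm. Of these, 9 rose (39.1%, against 17.4% of all tested genes) and 2 fell (8.7%, against 17.6%), with a median log2 fold change of 0.21. When the submitters' scaled values were tested as they stand, 2 rose and 0 fell, against 1209 and 256 of all 18353 tested genes. Selenos, whose selenoprotein sits in the ER membrane degradation complex, had 7.23, 10.1 and 6.24 CPM in Nat10 cKO libraries and 0.618, 3.39 and 1.62 CPM in WT libraries, a log2 fold change of 1.72 (limma adjusted p = 0.000837; 0.91 with a pseudocount of 5). Erlec1, an ER lectin gene, rose by 0.81 (limma adjusted p = 0.00101), and Herpud2, a homologue of the stress-induced Herpud1, fell by 0.76 to 153 ± 29.2 CPM in Nat10 cKO, against 256 ± 10.3 CPM in WT (limma adjusted p = 0.000479). Dnajb9 and Edem1 of this list, and Sdf2l1, counted among the other ER chaperones below, were picked after their values were seen. They did not pass the test. Dnajb9, an Hsp40 cochaperone of BiP, averaged 13.8 CPM in Nat10 cKO and 13.6 CPM in WT, with a log2 fold change of 0.01. Edem1, which helps to extract misfolded glycoproteins, averaged 44.6 CPM in Nat10 cKO and 47.1 CPM in WT, and Sdf2l1, an ER luminal cofactor of Hsp40 proteins, averaged 21.2 CPM in Nat10 cKO and 21.6 CPM in WT. Syvn1, which encodes the ubiquitin ligase HRD1 and was also picked after its values were seen, rose by 0.64 (limma adjusted p = 0.00131). Of the Edem and Derl relatives on the list, picked in the same way, Derl1, Derl2 and Edem2 rose by 0.51, 0.30 and 0.30 (limma adjusted p = 0.00335, 0.0401 and 0.0158). Edem3 and Derl3 had log2 fold changes of -0.21 and -0.19 and did not pass.

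In the PERK arm, neither the kinase mRNA nor Atf4 mRNA passed the test, and Ddit3 rose by a small amount. Eif2ak3 (chromosome 6, 70844515 to 70905245) had 7.07, 6.35 and 8.30 CPM in Nat10 cKO libraries and 5.50, 10.8 and 7.0 CPM in WT libraries. The genotypes overlapped, with both the lowest and the highest library in WT, and the log2 fold change was -0.05 (95% interval -0.48 to 0.38, limma adjusted p = 0.868). Atf4 (chromosome 15, 80255184 to 80257541) had 263, 259 and 285 CPM in Nat10 cKO libraries and 256, 298 and 266 CPM in WT libraries. These levels overlapped too, and the log2 fold change of -0.02 had a 95% interval of -0.21 to 0.17 (limma adjusted p = 0.879). PERK acts on Atf4 through translation, which mRNA levels do not measure. Ddit3 (chromosome 10), the gene of the stress-induced factor CHOP, had 55.8, 64.9 and 57.7 CPM in Nat10 cKO libraries and 48.4, 49.1 and 44.2 CPM in WT libraries. All Nat10 cKO libraries were above all WT libraries, and Ddit3 rose by 0.32 (SE 0.101, 95% interval 0.11 to 0.54, limma adjusted p = 0.0234). That call rested on single libraries: the log2 fold change was 0.28 without WT replicate 3 (limma adjusted p = 0.108) and 0.27 without Nat10 cKO replicate 2 (limma adjusted p = 0.0895). Exons of Eif2ak3 and Ddit3 overlap exons of genes on the opposite strand over 8.05% and 4.73% of their length, and the sources used here do not say whether counting used strand.

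Around PERK, 14 genes of the eIF2 kinases, eIF2, its exchange factor eIF2B and its phosphatase were tested: 5 rose (35.7%, against 17.4% of all tested genes) and 1 fell (7.14%, against 17.6%), with a median log2 fold change of -0.01. In the submitters' scaled values, 1 rose and 0 fell, against 1209 and 256 of all 18353 tested genes. Eif2b1, a regulatory subunit of eIF2B, averaged 560 ± 34.2 CPM in Nat10 cKO and 439 ± 38.7 CPM in WT, a log2 fold change of 0.35 (limma adjusted p = 0.00888). Eif2b5, the catalytic subunit of eIF2B, rose by 0.55 (limma adjusted p = 0.00889) and Eif2s3x, the gamma subunit of eIF2, by 0.45 (limma adjusted p = 0.00628). These counts were small and moved with single libraries: 3 rose without WT replicate 2, without WT replicate 3 or without Nat10 cKO replicate 2, none fell when either WT replicate 3 or Nat10 cKO replicate 2 was left out, and 4 fell without Nat10 cKO replicate 3.

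Of 24 listed targets of ATF4 and CHOP, 21 were tested, 5 rose and 4 fell, with a median log2 fold change of 0.13. These shares, 23.8% and 19.0%, were near those over all tested genes, 17.4% higher and 17.6% lower. In the submitters' scaled values 2 rose and 1 fell, against 1209 and 256 of all 18353 tested genes. The largest change was that of Stc2, a stress-induced stanniocalcin, which had 2.30, 1.18 and 2.97 CPM in Nat10 cKO libraries and 7.48, 7.58 and 7.43 CPM in WT libraries. The genotypes were far apart, and Stc2 fell by 1.48 (SE 0.200, limma adjusted p = 0.000198). Cebpb, a bZIP factor that pairs with CHOP, fell by 0.89 to 6.75 ± 2.19 CPM in Nat10 cKO, against 12.9 ± 0.37 CPM in WT (limma adjusted p = 0.00289); 20.7% of its exonic length overlaps another gene. Sesn2, which restrains the growth kinase mTORC1, rose by 0.79 to 3.05 ± 0.771 CPM in Nat10 cKO, against 1.34 ± 0.421 CPM in WT (limma adjusted p = 0.00581). With a pseudocount of 5 the log2 fold change was -0.81 for Stc2 and 0.34 for Sesn2. Among targets picked after their values were seen, Trib3, Chac1 and Asns had log2 fold changes of 0.34, -0.07 and 0.19 and did not pass. Psph, Phgdh, Psat1 and Slc3a2, picked in the same way, rose by 0.61, 0.40, 0.39 and 0.38 (limma adjusted p = 0.0315, 0.0174, 0.0253 and 0.00704). Psat1 averaged only 0.109 CPM in WT. Ddit4 and Cebpg fell, with log2 fold changes of -0.59 and -0.46 (limma adjusted p = 0.00727 and 0.0132). Without WT replicate 1 or WT replicate 3, 2 genes of the list rose in place of 5.

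The mRNAs of the ATF6 sensors did not pass the test. Atf6 (chromosome 1, 170704674 to 170867771) had 76.1, 76.8 and 81.8 CPM in Nat10 cKO libraries and 76.8, 69.9 and 74.3 CPM in WT libraries. The levels overlapped, and the log2 fold change was 0.09 (95% interval -0.11 to 0.28, limma adjusted p = 0.491). Atf6b (chromosome 17, 34647146 to 34655074), the paralogue of Atf6, had 13.7, 13.1 and 15.1 CPM in Nat10 cKO libraries and 11.7, 12.1 and 11.6 CPM in WT libraries. The Nat10 cKO libraries were all above the WT libraries, yet the log2 fold change of 0.23 did not pass (95% interval -0.05 to 0.50, limma adjusted p = 0.183). Of 12 genes for the Golgi proteases that cut ATF6, related bZIP factors and ERSE-binding factors, 11 were tested, 4 rose (36.4%, against 17.4% of all tested genes) and 2 fell (18.2%, against 17.6%), with a median log2 fold change of 0.24. In the submitters' scaled values, 3 rose and 0 fell, against 1209 and 256 of all 18353 tested genes. Creb3l1 and Creb3 encode bZIP factors that are released from the ER membrane as ATF6 is. Creb3l1 had 1.78, 2.88 and 1.34 CPM in Nat10 cKO libraries and 0.186, 0.488 and 0.498 CPM in WT libraries, a log2 fold change of 1.09 (limma adjusted p = 0.000797), and Creb3 rose by 0.92 to 16.8 ± 1.6 CPM in Nat10 cKO, against 8.61 ± 2.51 CPM in WT (limma adjusted p = 0.00141), with 20.8% of its exonic length shared with other genes. Gtf2i, the gene of TFII-I, which binds within ERSE sequences, rose by 0.78 to 1.45 ± 0.3 CPM in Nat10 cKO, against 0.425 ± 0.157 CPM in WT, where 8 to 31 reads were counted per library (limma adjusted p = 0.00145). At such levels the size depends on the pseudocount: over the alternatives the log2 fold change ranged from 0.25 to 1.76 for Gtf2i and from 0.37 to 2.33 for Creb3l1. The protease genes Mbtps1 and Mbtps2, named after their values were seen, had log2 fold changes of 0.24 and -0.03 and did not pass. Without WT replicate 1, WT replicate 3, Nat10 cKO replicate 1 or Nat10 cKO replicate 2, 1 gene of the list fell in place of 2.

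The 3 chaperone genes rose by similar amounts. Hspa5 (chromosome 2, 34771970 to 34777547) encodes BiP, the Hsp70 of the ER lumen that binds unfolded proteins and keeps the sensors inactive. It had 357, 382 and 341 CPM in Nat10 cKO libraries and 218, 271 and 237 CPM in WT libraries. Hspa5 rose by 0.57 (SE 0.0952, 95% interval 0.37 to 0.78, limma adjusted p = 0.000653). Calr (chromosome 8, 84841850 to 84846934) encodes calreticulin, a calcium-binding lectin chaperone of the ER lumen, and had 555, 542 and 557 CPM in Nat10 cKO libraries and 368, 433 and 379 CPM in WT libraries. It rose by 0.49 (SE 0.0852, 95% interval 0.31 to 0.67, limma adjusted p = 9e-04). Hsp90b1 (chromosome 10, 86690209 to 86705509) encodes GRP94, the Hsp90 of the ER, and had 263, 229 and 291 CPM in Nat10 cKO libraries and 174, 204 and 186 CPM in WT libraries. It rose by 0.47 (SE 0.101, 95% interval 0.25 to 0.69, limma adjusted p = 0.0035); 15.7% of its exonic length overlaps other genes, among them 1810014B01Rik on the opposite strand. For each of the 3 genes every Nat10 cKO library was above every WT library, and WT replicate 2 was the highest WT library.

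Among 53 other ER chaperones and folding enzymes, 51 were tested, 18 rose (35.3%, against 17.4% of all tested genes) and 5 fell (9.8%, against 17.6%), with a median log2 fold change of 0.18. In the submitters' scaled values, 6 rose and 0 fell, against 1209 and 256 of all 18353 tested genes. Clgn, the gene of calmegin, a chaperone related to calnexin and best known from male germ cells, had 5.75, 7.27 and 5.59 CPM in Nat10 cKO libraries and 1.48, 0.345 and 1.2 CPM in WT libraries, a log2 fold change of 1.88 (limma adjusted p = 6.83e-05). Creld1 had 5.16, 6.90 and 3.93 CPM in Nat10 cKO libraries and 0.247, 1.26 and 0.902 CPM in WT libraries, a log2 fold change of 1.83 (limma adjusted p = 0.000121). Tmx2, a transmembrane thioredoxin-related gene that shares 11.6% of its exonic length with other genes, rose by 1.61 to 7.66 ± 1.01 CPM in Nat10 cKO, against 1.89 ± 0.651 CPM in WT (limma adjusted p = 8.46e-05). The calmegin, Creld1 and Tmx2 genes thus lay at low levels in WT, like Xbp1. Their genotypes did not overlap, as in 48.3% of all tested genes. The 3 genes were named for the smallest p-values of the list, so this separation is no separate result. Over the alternatives their log2 fold changes ranged from 0.90 to 2.62 for Clgn, from 0.83 to 2.72 for Creld1 and from 0.88 to 2.01 for Tmx2. Not every ER chaperone rose; Canx, Hyou1 and Dnajc3 were picked after their values were seen. Canx, the membrane-bound relative of Calr, averaged 352 CPM in Nat10 cKO and 359 CPM in WT, and Hyou1, an exchange factor for BiP, averaged 27.8 CPM in Nat10 cKO and 27.0 CPM in WT; neither passed. Dnajc3, which encodes the BiP cochaperone and PERK inhibitor p58IPK, fell by 0.56 to 212 CPM in Nat10 cKO, against 313 CPM in WT (limma adjusted p = 0.000537). Also picked later, P4hb and Pdia3 rose by 0.70 and 0.54 (limma adjusted p = 0.000211 and 0.00048). Calr3 had the largest fall of the list, 0.86 (limma adjusted p = 0.000609). Without WT replicate 1, WT replicate 3, Nat10 cKO replicate 1 or Nat10 cKO replicate 2, 2 genes of the list fell in place of 5.

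**Figure D3:**
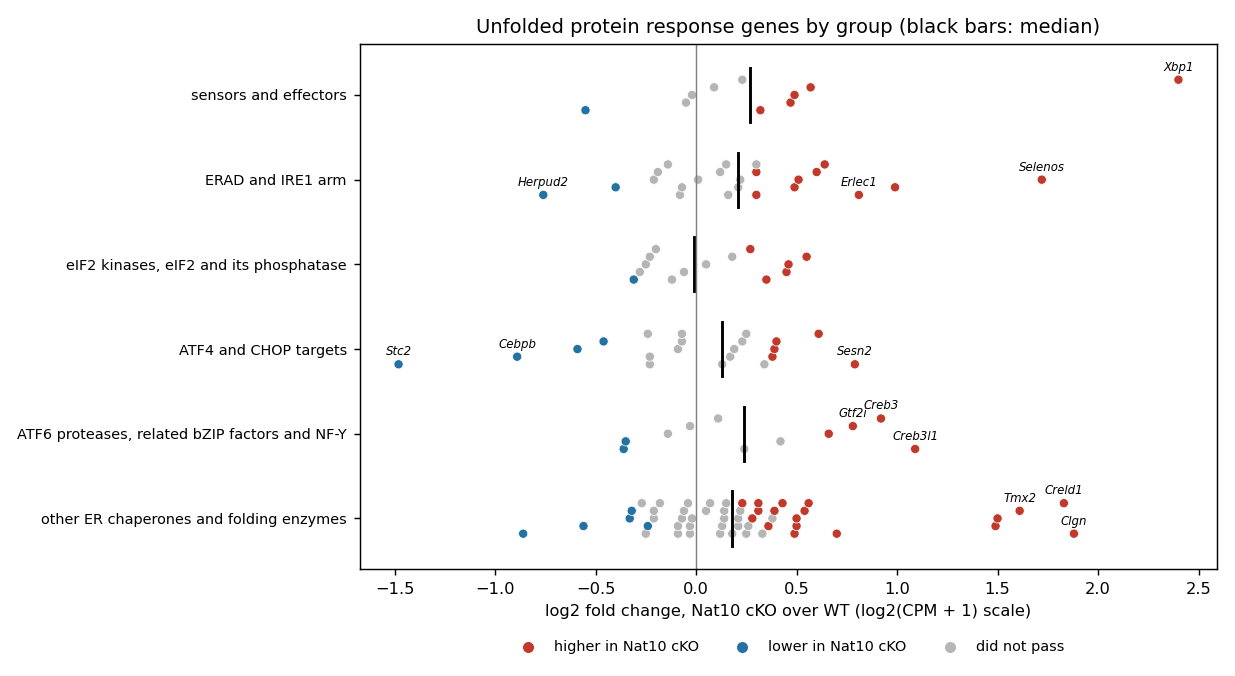
Log2 fold change (Nat10 cKO over WT, log2(CPM + 1) scale) of each tested gene of the 6 gene groups; red genes rose, blue genes fell, grey genes did not pass, and black bars are group medians. The medians lie between -0.01 and 0.27, and Xbp1 at 2.40 is the farthest point to the right.

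The 10 genes also differed in level and in how far libraries of 1 genotype spread. On a scale of CPM per kb of exonic length, Calr was the highest of them, at 191 ± 2.83 in Nat10 cKO and 137 ± 12.1 in WT, followed by Atf4 at 114 ± 5.94 in Nat10 cKO and 116 ± 9.30 in WT. In Nat10 cKO the order went on with Hspa5 at 85.1, Hsp90b1 at 64.7, Ern1 at 51.7, Ddit3 at 34.7, Atf6 at 8.48, Atf6b at 5.07, Xbp1 at 3.02 and Eif2ak3 at 1.2. In WT it went on with Ern1 at 75.2, Hspa5 at 57.2, Hsp90b1 at 46.6, Ddit3 at 27.6, Atf6 at 7.98, Atf6b at 4.28, Eif2ak3 at 1.29 and Xbp1 at 0.301. By these means Ern1 stood below the chaperones Hspa5 and Hsp90b1 in Nat10 cKO and above both in WT, and Xbp1 was the lowest of the 10 genes in WT only. Neighbours in these orders overlapped in range once, for Hsp90b1 and Ern1 in Nat10 cKO. The coefficient of variation of Xbp1 in CPM was 44.2% in Nat10 cKO and 45.8% in WT, whereas the other 9 genes lay between 1.42% and 14.1% in Nat10 cKO and between 2.24% and 35.0% in WT, Eif2ak3 being the most variable of them in WT.

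**Figure D4:**
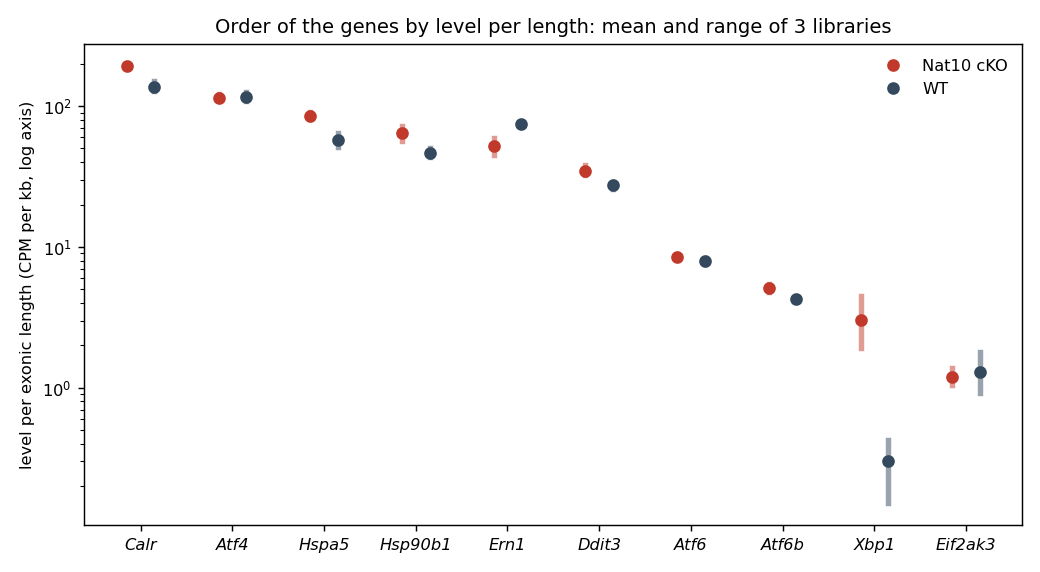
Mean level per kb of exonic length (CPM per kb, log axis) with the range of 3 libraries, in Nat10 cKO (red, left) and WT (blue, right), for the 10 genes in their Nat10 cKO order. Xbp1 shows the widest gap between genotypes, 3.02 in Nat10 cKO against 0.301 in WT.

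Genes with a profile close to that of Xbp1 were sought among 13741 tested genes with a mean of at least 1 CPM, by the root mean square difference between centred log2(CPM + 1) values over the 6 libraries. Htr5b, a serotonin receptor gene, was closest at 0.143, with 13.1, 21.7 and 7.58 CPM in Nat10 cKO libraries and 1.42, 2.47 and 2.21 CPM in WT libraries. G2e3, a ubiquitin ligase gene, followed at 0.200, with 24.5, 33.4 and 16.2 CPM in Nat10 cKO libraries and 3.96, 5.14 and 5.26 CPM in WT libraries. Hmgn3, which encodes a nucleosome-binding protein, followed at 0.209, with 15.4, 20.6 and 8.76 CPM in Nat10 cKO libraries and 1.98, 2.59 and 2.78 CPM in WT libraries. In each of these genes, as in Xbp1, Nat10 cKO replicate 2 was the highest library and replicate 3 the lowest of its genotype. The genes were selected for likeness to Xbp1 over these same libraries, so a shared order is no separate result.

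How levels are scaled between libraries decided which of the 10 genes passed. TMM scaling assumes that the bulk of genes does not change, and gave 3190 higher and 3232 lower genes (2108 higher and 2201 lower without WT replicate 3). The deposited values carry 1 factor per library from the submitters. The name of their table refers to ERCC, the spike-in added for calibration per the design text, but how the factors were computed is not stated. Tested as deposited (deposited scaling), they gave 1209 higher and 256 lower genes, and the median of all genes shifted by 0.24 on the log2 scale. These values were not divided by library size, so differences in depth stay in them except as far as the factors change them. The part of depth in the calls and in this shift was not tested. With the same factors applied to CPM by library size, that is to per-read shares, 1027 genes were higher and 3028 lower, and the median shifted by -0.148. Xbp1 rose under both, with log2 fold changes of 2.57 as deposited (limma adjusted p = 5.88e-11) and 2.23 on per-read shares (limma adjusted p = 6.48e-17). Relative to the shift of the median these are 2.33 and 2.38.

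The chaperone genes had positive log2 fold changes under both of these scalings but did not pass. Hspa5 had a log2 fold change of 0.93 as deposited (limma adjusted p = 0.136) and of 0.36 on per-read shares (limma adjusted p = 0.189), which relative to the median are 0.69 and 0.51. The SE of Hspa5 was 0.395 as deposited and 0.197 on per-read shares, against 0.0952 under TMM. Calr had 0.85 (limma adjusted p = 0.19) and 0.27 (limma adjusted p = 0.318), and Hsp90b1 had 0.83 (limma adjusted p = 0.21) and 0.25 (limma adjusted p = 0.411). Ddit3 had 0.68 as deposited (limma adjusted p = 0.339) and 0.11 on per-read shares (limma adjusted p = 0.795). Ern1 fell on per-read shares by 0.77 (limma adjusted p = 0.000606) and did not pass as deposited, with -0.19 (limma adjusted p = 0.822). The deposited signal of Ern1 was 28400, 15900 and 32800 in Nat10 cKO libraries and 20400, 29800 and 35900 in WT libraries, so the genotypes overlapped on that scale. The deposited signal of Xbp1 was 588, 632 and 421 in Nat10 cKO libraries and 16, 66.2 and 64.3 in WT libraries and did not overlap.

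**Figure D5:**
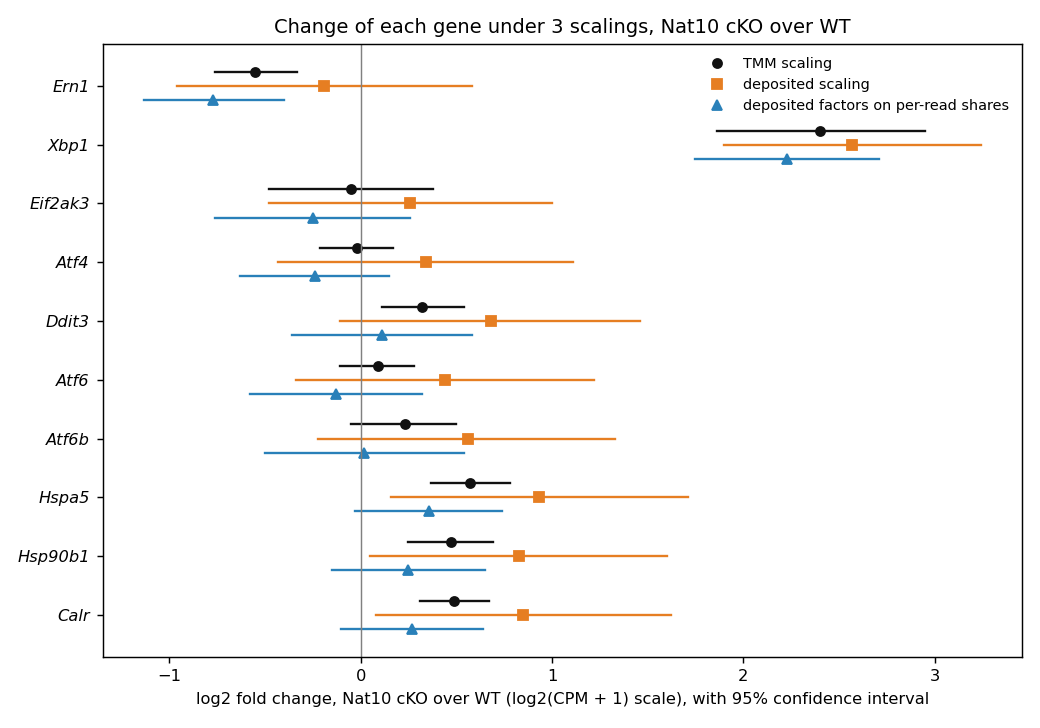
Log2 fold change (Nat10 cKO over WT) with its 95% interval for each of the 10 genes under TMM scaling (black), deposited scaling (orange) and the deposited factors on per-read shares (blue). Xbp1 lies above 0 with its whole interval under all 3; the intervals of the chaperone genes exclude 0 under TMM and deposited scaling, although no adjusted p-value passes under deposited scaling, and include 0 on per-read shares.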

How the data were processed

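Messenger RNA of 3 Nat10 cKO and 3 WT pools of oocytes was measured by Smart-seq2. The tools named in the submitters' processing notes are STAR 2.7.10a, Trim Galore 0.6.7 and featureCounts, on build mm10, without their settings. The authors deposited raw gene counts for WT replicate 1 only. For the remaining 5 libraries they deposited a signal, the product of whole reads and 1 factor per library (0.920, 0.908 and 0.932 for Nat10 cKO replicates 1, 2 and 3, and 1.38 and 0.945 for WT replicates 2 and 3). Division by the factor returned a whole number of reads, to within 0.001, for 100% of nonzero values.

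The recovered reads were filtered with filterByExpr (minimum count 10), scaled by TMM and tested with limma (trended, robust, two-sided) on log2(CPM + 1), with Benjamini-Hochberg adjustment over 18353 genes at 0.05; a pseudocount of 1 understates the change of low genes. edgeR's quasi-likelihood test on the recovered reads, an alternative, called 3053 genes higher and 3149 lower. The named genes are the 10 genes of the report, Nat10, the 3 smallest p-values of each pathway list and the 3 profiles nearest to Xbp1; genes outside this rule are said to be picked later. The members and lists were chosen with earlier results of these data known. Gene positions and exonic lengths came from GENCODE M21 on GRCm38, promoter windows from RefSeq on GRCm38.p6. The scripts were tested on simulated data. Tools were R 4.3.3, limma 3.58.1, edgeR 4.0.16, DESeq2 1.42.0, Python 3.11.15, pandas 2.3.3, numpy 2.4.6 and matplotlib 3.10.9.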

Additional observations from a re-analysis of the deposited data

How the results depend on the processing

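Among 16 alternatives, Xbp1 stayed past the threshold in all, with log2 fold changes of 1.27 to 3.32. Every changed call among the 10 genes came from the deposited factors or from leaving out 1 library. Under deposited scaling the log2 fold changes that no longer passed were -0.19 for Ern1, 0.68 for Ddit3, 0.93 for Hspa5, 0.83 for Hsp90b1 and 0.85 for Calr, and on per-read shares with the deposited factors 0.11 for Ddit3, 0.36 for Hspa5, 0.25 for Hsp90b1 and 0.27 for Calr. Of the genes that were not called, the sign turned for Atf4 (0.01 by library size only, 0.34 under deposited scaling), Eif2ak3 (0.26 under deposited scaling) and Atf6 (-0.13 on per-read shares). When libraries were left out in turn, Ddit3 ranged from 0.27 to 0.38, Eif2ak3 from -0.24 to 0.19 (0.19 without WT replicate 2, 0.03 without Nat10 cKO replicate 2) and Atf4 from -0.07 to 0.05 (0.05 without WT replicate 2, 0.01 without Nat10 cKO replicate 1 or replicate 2). The cause was not tested.

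Counts of the 10 genes fell to 1 higher and 0 lower under deposited scaling and to 1 higher on per-read shares. Under deposited scaling 2 ERAD and IRE1 arm genes were higher and 0 lower, 1 gene of the eIF2 list higher and 0 lower, 2 ATF4 and CHOP targets higher and 1 lower, 0 genes of the ATF6 list lower, and 6 other ER chaperones higher and 0 lower; over all genes 1209 were higher and 256 lower. On per-read shares 2 ERAD and IRE1 arm genes, 1 gene of the eIF2 list, 1 ATF4 and CHOP target and 6 other ER chaperones were higher, 0 genes of the ATF6 list and 3 other ER chaperones were lower, and 1027 of all genes were higher. Of called genes, 82.5% were higher under deposited scaling and 25.3% on per-read shares, against 49.7% under TMM. A pseudocount of 0.25 gave 2 lower genes in the eIF2 list. Without the filter on low counts, 3 genes of the eIF2 list and 3 ATF4 and CHOP targets were higher, and 1 gene of the ATF6 list and 2 other ER chaperones were lower. With libraries left out in turn, the eIF2 list had 3 to 5 higher and 0 to 4 lower, the ATF4 and CHOP targets 2 to 5 higher, the ATF6 list 1 to 2 lower, the other ER chaperones 2 to 5 lower, and all genes 2108 to 3431 higher. Leaving a library out leaves 2 in its genotype.

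Same-numbered libraries of the genotypes deviated together with correlations of 0.0788, 0.0747 and -0.12 for replicates 1, 2 and 3. Differently numbered pairs ran from -0.231 to 0.237. These values show no pairing by number, but with so few libraries they cannot exclude one. A fit with the replicate number as a block gave 3070 higher and 3164 lower genes and changed no call among the 10 genes, for example 2.40 for Xbp1 and 0.32 for Ddit3. Allowing 1 mismatch in the ERSE gave 4 genes with an element in place of 3, Ddit3 being added, against 1.72% of all genes. Marker sums by library size only kept their direction. Low depth limits Xbp1, whose WT level rests on 16 to 68 reads per library, and the named genes Creb3l1, Gtf2i and Creld1, which had 6 to 32, 8 to 31 and 8 to 58 WT reads.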

Other observations

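Outside the 10 genes, few mouse promoters hold an exact ERSE, and the levels of those genes were listed after the data had been seen. Of 37 genes with an element, 23 were tested; without Hspa5, Hsp90b1 and Calr, 20 remain, of which 8 rose (40.0%) and 2 fell, with a median log2 fold change of 0.18. Over all tested genes 17.4% rose and 17.6% fell, with a median of 0.00. Among them Syvn1, the gene of the ubiquitin ligase HRD1, averaged 77.0 CPM in Nat10 cKO and 48.8 CPM in WT, Pdia6, a protein disulfide isomerase gene, 375 CPM in Nat10 cKO and 266 CPM in WT, and Creld2, a gene known to be induced by ER stress, 406 CPM in Nat10 cKO and 311 CPM in WT. The mannosyltransferase gene Alg12 and Spats2l also rose, by 0.47 and 0.49. Xlr3a, Xlr3b and Xlr3c, the other 3 that rose, are near-identical copies whose shared reads could be split between them, so their values are uncertain. The 40.0% rests in part on these copies and on Syvn1, Pdia6 and Creld2, which were already counted in the pathway lists above. It is therefore not separate from those lists. Dnajc3 and Calr4, also of those lists, fell by 0.56 and 0.32, and Canx and Derl3 of those lists did not pass. Genes with the UPRE core (116 tested) numbered 22 higher and 16 lower, 19.0% higher, and genes with the ATF4 composite core (101 tested) 16 higher and 21 lower, 15.8% higher.

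Nat10 cKO replicate 2 was the library farthest from the WT mean for 4 of the 6 called genes of the report (Xbp1, Ern1, Ddit3 and Hspa5) and for 14 of the 15 genes named from the pathway lists. Over all 6422 called genes it was the farthest for 72.9%, and over the 823 that changed at least 2-fold for 81.5%. Each factor of the deposited table equals 69 divided by a whole number, which is 75, 76 and 74 for Nat10 cKO replicates 1, 2 and 3, and 69, 50 and 73 for WT replicates 1, 2 and 3.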
